A study of Mus musculus with 8 samples.

Results

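The clustered protocadherins are a family of cell adhesion genes that lie side by side on mouse chromosome 18 in an alpha, a beta and a gamma cluster. Members were the protein-coding genes of GENCODE release M21 whose names begin with Pcdha, Pcdhac, Pcdhb, Pcdhga, Pcdhgb or Pcdhgc and a number. This rule found 57 of 21853 protein-coding genes: 14 alpha, 22 beta and 21 gamma genes, all on the forward strand. The mark measured over them was trimethylation of lysine 36 of histone H3 (H3K36me3), by chromatin immunoprecipitation and sequencing (ChIP–seq).

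The cells were mouse embryonic fibroblasts (MEFs) from 1 E13.5 embryo, named Clone 1 in the labels and MEF 1 in the study. They were i4F MEFs, which carry a doxycycline-inducible cassette for the reprogramming factors Oct4, Sox2, Klf4 and c-Myc (OSKM) on a C57/BL6J background, and all 4 conditions carried it. Cells were grown for 72 h in iPSC media with no addition (MEF), with 2 µM vitamin B12 (MEF B12), with 1 µg/ml doxycycline (OSKM), or with both (OSKM B12). The labels give doxycycline in micrograms per ml, and the study's methods give it in milligrams. A single H3K36me3 library and its input were made per condition, so there was no replicate check of any difference, and no p-value was computed. The protocol in the labels writes the antibody's target as H3K3me3, whereas the label of each precipitated library writes H3K36m3.

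Each alpha and gamma gene begins with its own promoter and a large variable exon, which codes for the extracellular cadherin repeats, the transmembrane segment and part of the cytoplasmic tail. This exon is spliced to a set of short constant exons shared by the whole cluster, which code for the rest of the tail. Beta genes consist of a variable exon alone. In the nervous system, single neurons use different sets of these promoters, and the resulting proteins let a neuron tell its own branches from those of other neurons. The C-type genes (Pcdhac1, Pcdhac2, Pcdhgc3, Pcdhgc4 and Pcdhgc5), nearest to the constant exons, are used more broadly among neurons than the others. H3K36me3 is laid down by SETD2 as RNA polymerase II elongates, so it lies along transcribed gene bodies, mostly away from the start.

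The deposited H3K36me3 libraries held between 29046913 and 33399267 tags after filtering and between 65473 and 69420 peaks on chromosomes 1 to 19, X and Y. OSKM, the library with the most tags, had the least signal in peaks. Peaks covered 8.64% of all other protein-coding gene bodies in OSKM, compared with 14.2% in MEF, 15.4% in MEF B12 and 15.3% in OSKM B12. Of 7 fibroblast marker genes, 6 had at least 10% of their body in peaks in OSKM and all 7 in each of the other libraries. None of 4 pluripotency and 2 epithelial markers had a peak in any library. Of 5 neuron markers, Tubb3 alone reached 10%, in 3 libraries.

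Here the covered share is the percentage of bases inside peaks, and a variable exon is called marked when its covered share is at least 10%. The pileup of a peak, the mean number of H3K36me3 fragments over its bases, was rescaled to 1000000 tags per library (scaled pileup). Density, for any region, means scaled pileup summed over the bases in peaks and divided by the region's length. Intervals are 95% intervals and cover counting error only. In a culture of many cells, fewer cells with the mark and less of the mark per cell cannot be told apart.

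The H3K36me3 peaks of the protocadherin locus lay almost entirely in the gamma cluster. The alpha span (chr18:36930184-37187661, 257.5 kb, mm10) had no peak in MEF, MEF B12 and OSKM and 1 peak in OSKM B12. That peak was 292 bases long, at chr18:37163090-37163381 in an intron between constant exons, with a pileup of 10.9 fragments and a −log10 q of 1.54, so that 10.5% of the peaks in its list had a lower value. The beta span (chr18:37264938-37524479, 259.5 kb) had no peak in any of the 4 libraries. The gamma span (chr18:37661793-37841873, 180.1 kb) had 25 peaks in MEF and 36 in MEF B12, against 14 in OSKM and 22 in OSKM B12.

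**Figure D1:**
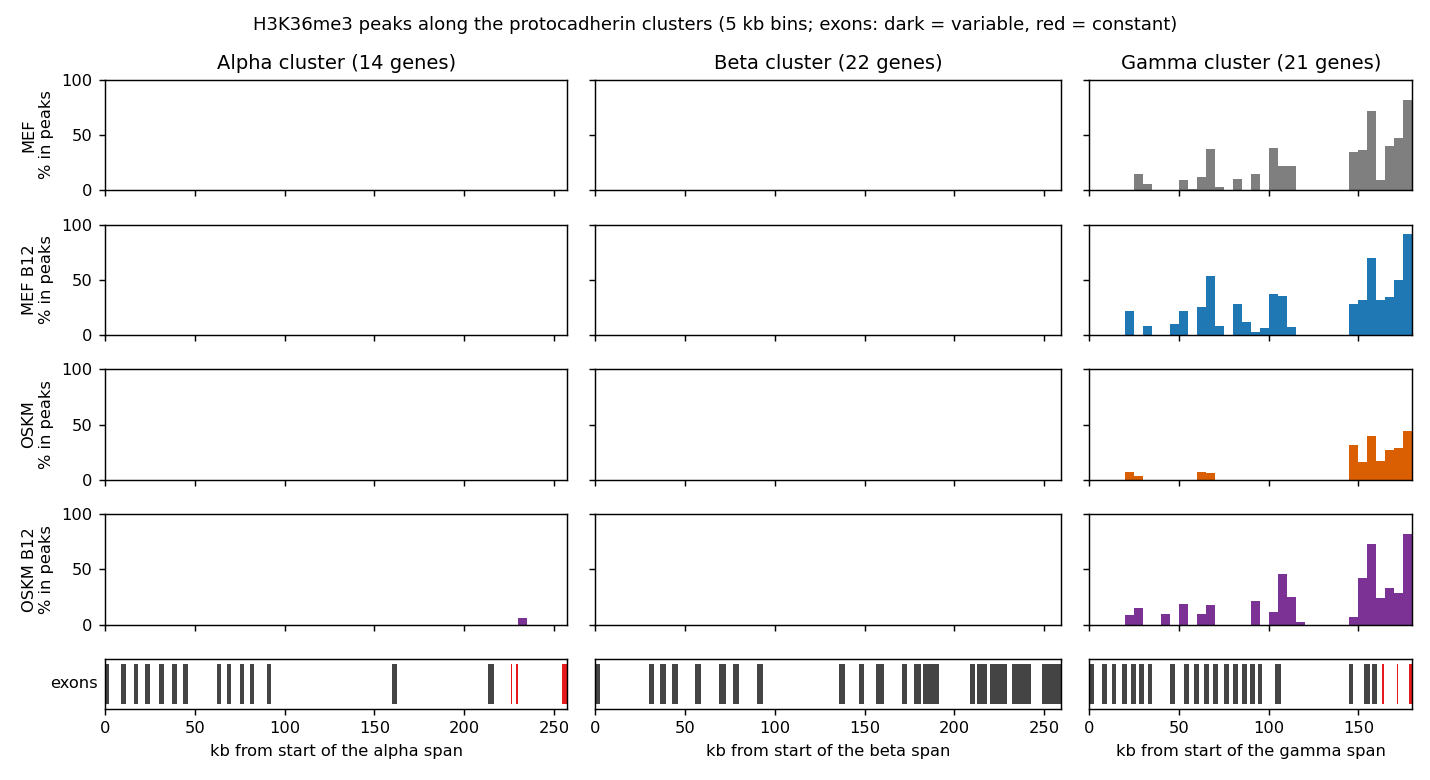
Percentage of bases in H3K36me3 peaks (vertical axes, 0 to 100) in 5 kb bins along the alpha, beta and gamma spans (horizontal axes, kb from the start of each span), with 1 row per library and the variable (dark) and constant (red) exons below. The alpha panels hold 1 low bar, in OSKM B12, the beta panels are empty, and the highest bars are at the C-type and constant exons of the gamma span.

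None of the 14 alpha variable exons was marked in any library (0%, Wilson interval 0 to 21.5%). They include Pcdha1, the first, a pair of genes to which GENCODE gives the same name Pcdha11 (ENSMUSG00000007440 and ENSMUSG00000102206), and the C-type genes Pcdhac1 and Pcdhac2, the last. None of the 3 alpha constant exons had a base in a peak. The 22 beta exons, from Pcdhb1 to Pcdhb22, were likewise at 0 in all libraries (0%, 0 to 14.9%). Of other large coding exons of 1500 to 4000 bases, 38.4% were marked in MEF and 38.8% in MEF B12, against 32.5% in OSKM and 39.5% in OSKM B12.

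The variable exon is exon 1 of the transcript in all 57 members, and in other genes large exons in this place were less often marked than later ones. Of 542 other large coding exons that were exon 1, 11.1% were marked in MEF and 10.9% in MEF B12, against 8.86% in OSKM and 12.7% in OSKM B12, next to 42.7%, 43.3%, 36.3% and 43.7% of large exons further down the transcript. Among the 420 of these that were single-exon genes, the form of the beta genes, the shares were 9.05%, 9.29%, 8.10% and 11.4% in the same order. The 122 that began a gene of 2 or more exons, the form of the alpha and gamma genes, gave 18.03%, 16.4%, 11.5% and 17.2%. The shares of single-exon genes fall inside the Wilson interval of the beta share. Those of genes with 2 or more exons fall inside the interval of the alpha share. Both intervals take neighbouring exons as separate. Some beta exons, which run from 2588 to 8695 bases, are longer than the exons they are set beside. The aligner setting in the study's methods drops reads that match several places, although the methods word it as keeping such reads at a single place, and under either reading paralogous exons can lose reads. Of windows of 75 bases, the tag length, in alpha variable exons, 20.4% had another place on chromosome 18 within 2 mismatches, and in beta exons 8.46%. The share was 7.98% in gamma variable exons and 0% in the constant exons of both clusters. The part of repeated sequence in the absence of peaks was not tested, and other chromosomes were not searched.

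In the gamma cluster, 10 of 21 variable exons were marked in MEF (47.6%, with a Wilson interval of 28.3 to 67.6%). MEF B12 had 13 marked exons (61.9%, 40.9 to 79.3%). OSKM had 5 (23.8%, 10.6 to 45.1%), and OSKM B12 had 8 (38.1%, 20.8 to 59.1%). Each interval lay above the share of all other exon 1 exons in the same library, although that of OSKM includes the 11.5% of genes with 2 or more exons. The interval takes the 21 exons as separate, but they lie side by side, the downstream ones in introns of genes upstream. It therefore does not test the gamma exons against other exons. Pcdhga4, Pcdhga8, Pcdhgc4 and Pcdhgc5 were marked in all 4 libraries. Pcdhga7, Pcdhgb7, Pcdhga11 and Pcdhga12 were marked in all except OSKM. Pcdhgb5 and Pcdhgb6 were marked in the MEF and MEF B12 libraries, and Pcdhga5 and Pcdhga6 in MEF B12 alone. Pcdhgc3 was marked in MEF B12 and OSKM, and Pcdhga1, Pcdhga2, Pcdhga3, Pcdhgb1, Pcdhgb2, Pcdhgb4, Pcdhga9 and Pcdhga10 had no peak in any library.

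**Figure D2:**
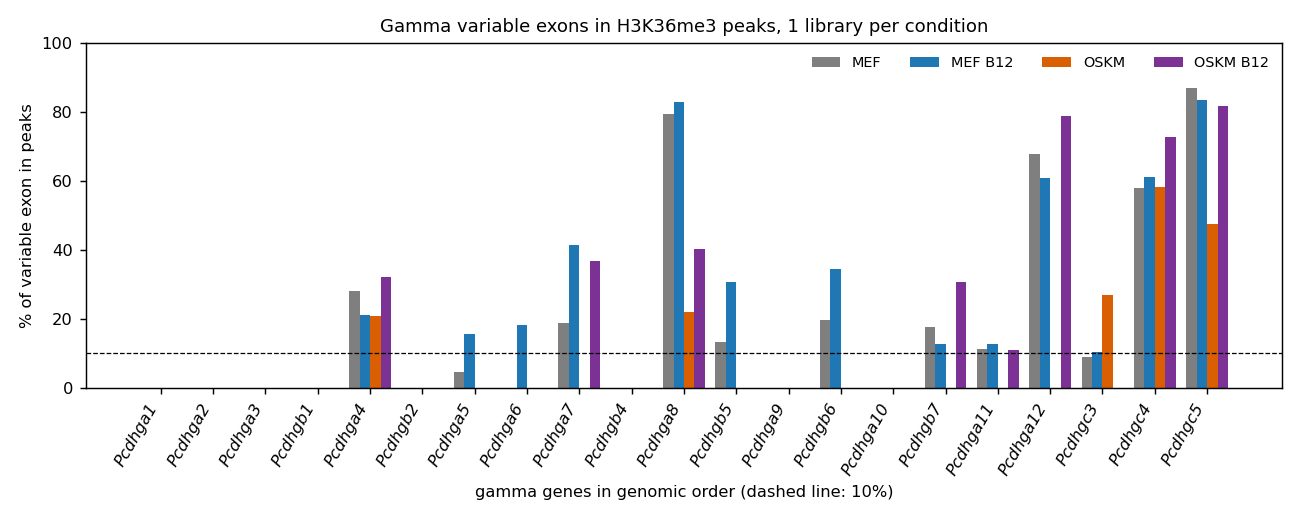
Percentage of each gamma variable exon in H3K36me3 peaks (vertical axis, 0 to 100) for the 21 genes in genomic order (horizontal axis), with 1 bar per library and a dashed line at 10%. Pcdhga8, Pcdhga12, Pcdhgc4 and Pcdhgc5 have the highest bars, and OSKM has no bar at Pcdhga12.

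By mean density over the libraries, Pcdhgc5 and Pcdhgc4 ranked highest, and Pcdhgc3, the remaining C-type exon, ranked lower, below Pcdhga8, Pcdhga12 and several others. Pcdhgc5 (ENSMUSG00000102543, variable exon chr18:37819513-37822134) was 86.9% covered in MEF and 83.5% in MEF B12, against 47.5% in OSKM and 81.7% in OSKM B12. Its density was 0.442, 0.399, 0.216 and 0.511 scaled pileup in the same order, lowest in OSKM. Pcdhgc4 (ENSMUSG00000023036, chr18:37815079-37817983) was 57.8%, 61.0%, 58.2% and 72.6% covered, so its covered share in OSKM was close to that in MEF. Its density was 0.324 in MEF and 0.387 in MEF B12, against 0.284 in OSKM and 0.518 in OSKM B12. The mean densities were 0.378 for Pcdhgc4 and 0.392 for Pcdhgc5. Pcdhgc3 (ENSMUSG00000102918, chr18:37806410-37808977) ran the other way, with 8.995% covered in MEF and 10.5% in MEF B12, against 27.0% in OSKM and 0% in OSKM B12. Its OSKM peak had a −log10 q of 1.30, which 4.94% of the peaks in that list fell below, and about 26 estimated tags lay in it over the exon.

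Among the A and B types, Pcdhga8 and Pcdhga12 were the most covered. Pcdhga12, the last A-type exon before the C types, was 67.8% covered in MEF and 60.7% in MEF B12, against 0% in OSKM and 78.9% in OSKM B12. Its density was 0.319, 0.254, 0 and 0.361, with OSKM apart from the other libraries. Pcdhga8 was 79.4%, 82.9%, 22.1% and 40.2% covered, and its density was 0.309, 0.332, 0.0906 and 0.214. Both exons have few windows with another place on chromosome 18, 0% for Pcdhga12 and 6.32% for Pcdhga8.

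The next in the order had lower densities, at most 0.1605, reached by Pcdhga7 in MEF B12. Pcdhga4, the most even of the A types, was 28.03% and 20.97% covered in MEF and MEF B12 and 20.9% and 32.2% in OSKM and OSKM B12. In the same order of libraries, Pcdhga7 was 18.7%, 41.3%, 0% and 36.6% covered, Pcdhgb7 17.5%, 12.8%, 0% and 30.6%, and Pcdhga11 11.2%, 12.6%, 0% and 11.1%. Pcdhgb5 was 13.3% and 30.7% covered in MEF and MEF B12 and Pcdhgb6 19.6% and 34.4%, both at 0 with doxycycline. Pcdhga5 was 4.48% and 15.7% covered in MEF and MEF B12, and Pcdhga6 was 18.3% covered in MEF B12 and at 0 elsewhere. Most of these values rest on 1 peak per exon, with between 5 and 42 estimated tags where a peak was present.

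By type, 7 of 12 A-type, 3 of 6 B-type and all 3 C-type exons were marked in at least 1 library. Of 3971 other large coding exons, 1687 were. However, 3429 of the 3971 are not exon 1 of their transcript, and exon 1 exons were less often marked than later ones. Among gamma variable exons, the share of windows with another place on chromosome 18 had a median of 5.76% (range 0 to 24.8%) in the 8 without a peak. The median was 0% (0 to 30.6%) in the 13 that were marked. The part of repeated sequence in this difference was not tested. The first 4 exons of the cluster (Pcdhga1, Pcdhga2, Pcdhga3 and Pcdhgb1) were all without a peak. The variable exons downstream lie in introns of the genes upstream of them, and all 21 genes end in the same constant exons. A peak over a downstream exon can therefore not be assigned to 1 gene. Several antisense transcripts (Gm37165, Gm26672, BC037039 and Gm29994) overlap the span, and ChIP–seq reads carry no strand.

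Because of this nesting, whole gene bodies gave another picture than variable exons. All 21 gamma bodies had at least 10% of their bases in peaks in MEF, MEF B12 and OSKM B12, and 8 did in OSKM. Of all other protein-coding gene bodies, 42.2% did in MEF and 43.5% in MEF B12, against 35% in OSKM and 43.7% in OSKM B12. The 21 bodies share most of their bases, so they are not 21 separate observations. In MEF the covered share of a body ran from 14.2% for Pcdhga1, the longest, to 48.4% for Pcdhgc5, and in OSKM from 6.34% for Pcdhga1 to 32.2% for Pcdhgc4.

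In the 106.7 kb from Pcdhga1 to the end of the Pcdhga12 exon, the A- and B-type part, peaks lay mostly on the exons. Variable exons make up 44.0% of this part and held 83.5% of its peak bases in MEF and 67.0% in MEF B12, against 91.7% in OSKM and 85.1% in OSKM B12. A variable exon was touched by 11 of 12 peaks in MEF, 15 of 22 in MEF B12, 3 of 3 in OSKM and 9 of 12 in OSKM B12. The exons were 14.9% covered in MEF and the bases outside them 2.32%. In MEF B12 the shares were 18.7% and 7.23%, in OSKM 2.39% and 0.169%, and in OSKM B12 13.3% and 1.84%. The density in exons was 6.74 times that outside them in MEF, 2.93 times in MEF B12, 13.9 times in OSKM and 8.08 times in OSKM B12, so MEF B12 was the library with the most signal between the exons. The OSKM value rests on 3 peaks.

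The A- and B-type exons were covered along their length, and the C-type exons mostly beyond their first 500 bases. In the A and B types, the first 500 bases were 8.28% covered in MEF and 19.7% in MEF B12, against 2.88% in OSKM and 11.3% in OSKM B12. The rest of these exons was 16.5%, 18.5%, 2.27% and 13.8% covered. The 1000 bases before the exon, where the promoters lie, were 1.00%, 11.4%, 0.561% and 0% covered. MEF B12 thus stood apart from the other libraries upstream of the exons, where 5 of the 18 exons had a MEF B12 peak within the 250 bases before their start and at most 1 exon in each other library. These 5 peaks were weak, with −log10 q values from 1.41 to 2.22. Between 5.98% and 37.0% of the MEF B12 list had a lower value. The same count was not made upstream of other exons. In the C types, the first 500 bases were 10.5%, 4.40%, 0% and 1.40% covered, and the rest 61.1%, 63.1%, 55.0% and 64.2%. The 1000 bases after the C-type exons were 34.9%, 52.3%, 21.3% and 45.4% covered. Peaks on Pcdhgc4 ran on past the exon in every library, and those on Pcdhgc5 in all except OSKM. Those on Pcdhgc3 did so in MEF, MEF B12 and OSKM.

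**Figure D3:**
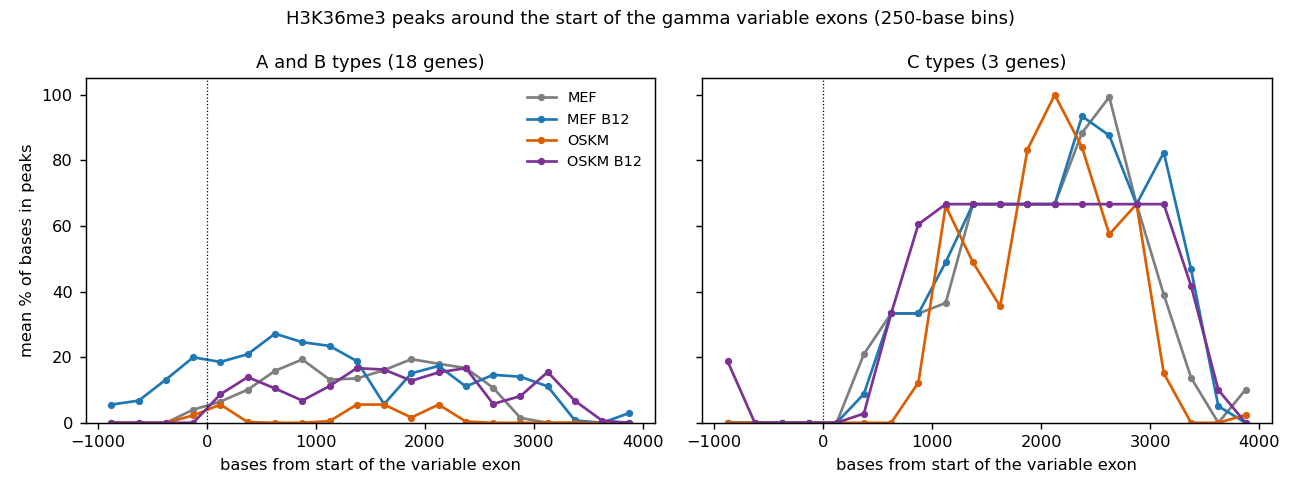
Mean percentage of bases in H3K36me3 peaks (vertical axis) in 250-base bins from 1000 bases before to 4000 bases after the start of the gamma variable exons (horizontal axis), for the 18 A and B types (left) and the 3 C types (right), 1 line per library. Upstream of the A and B types MEF B12 is the highest line, and in the C types all 4 lines are at 0 in the first 250 bases and high further in.

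The 3 gamma constant exons together had the highest density of the gamma regions compared, most of it through the last of them. Constant exon 1 (59 bases, chr18:37825021-37825079) had no peak in any library. Constant exon 2 (89 bases, chr18:37833265-37833353) was 100% covered in MEF and OSKM B12, covered in part in OSKM and 0% covered in MEF B12, where a peak began downstream of it. Constant exon 3 (1971 bases, chr18:37839903-37841873), which holds the end of the coding sequence and the 3′ untranslated region, was 84.8% covered in MEF and 81.3% in MEF B12, against 65.0% in OSKM and 81.2% in OSKM B12. Its density was 0.452, 0.444, 0.307 and 0.550 in the same order. Among other last exons that were marked, 45.2% had a lower density in MEF and 36.4% in MEF B12, against 52.4% in OSKM and 46.8% in OSKM B12, so this exon stood near the middle of marked last exons.

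The constant exons together had a density of 0.441 in MEF (0.359 to 0.533) and 0.413 in MEF B12 (0.330 to 0.507). It was lower in OSKM, at 0.288 (0.226 to 0.364), and highest in OSKM B12, at 0.539 (0.446 to 0.647). The gamma variable exons together had 0.0910, 0.105, 0.0369 and 0.101. Constant exons thus had 4.85 times the density of variable exons in MEF and 3.93 times in MEF B12, against 7.80 times in OSKM and 5.36 times in OSKM B12. The C-type variable exons lay between, with 0.271, 0.279, 0.200 and 0.351. In the 37.9 kb between Pcdhga12 and Pcdhgc3, which holds no variable exon, the covered share was 2.93%, 1.76%, 0% and 5.06%.

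The gamma peaks whose −log10 q reached 5 included some on Pcdhgc4, Pcdhgc5 and Pcdhga8 and over constant exons 2 and 3. The Pcdhgc4 peak of OSKM B12 (chr18:37815875-37818653) had a pileup of 21.1 fragments and a −log10 q of 8.99, above 94.6% of the peaks in its list. In MEF the highest −log10 q, 5.51, was that of the peak of 4078 bases over constant exon 3, with a pileup of 17.4, and the highest pileup, 18.3, was that of the peak on Pcdhgc4. By −log10 q, most gamma peaks were weaker than the usual peak. By median fold enrichment this held in MEF, MEF B12 and OSKM B12 but not in OSKM, with 2.71 for gamma peaks and 2.65 for the list. The median −log10 q of gamma peaks was 2.31 in MEF and 1.81 in MEF B12, against 2.03 in OSKM and 2.21 in OSKM B12. Over the whole lists it was 2.58, 2.65, 2.23 and 2.72. With peaks required to reach a −log10 q of 5, no gamma peak was left in OSKM, and 1, 3 and 5 were left in MEF, MEF B12 and OSKM B12.

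The comparison of OSKM with MEF asked how the mark differed after 72 h of factor expression. Density is summed over peaks that were called in each library on its own, so a ratio of densities combines how many bases were called with the pileup over them. Gamma density was lower in OSKM. Over the whole gamma span the density was 0.0640 in MEF and 0.0260 in OSKM, a ratio of 0.406 (0.366 to 0.449). Over all other protein-coding gene bodies the ratio was 0.504. Among single gene bodies of low density, from gene lists described below, the ratio was 0.0656 for Stag1, 0.0918 for Pcdh19 and 0.167 for Stag2. It was 0.328 for Prkca, 0.547 for Dnmt3b and 0.758 for Wasf1. These bodies are examples, and other bodies of low density in the lists are left out here. In the A- and B-type part the density was 0.0313 in MEF and 0.00426 in OSKM, a ratio of 0.136 (0.101 to 0.183), with 12 peaks against 3. Most of this was in the bases called, with a ratio of covered shares of 0.146, whereas the mean pileup over covered bases had a ratio of 0.933. From Pcdhgc3 to the end of the cluster, the C-type part, it was 0.218 and 0.119, a ratio of 0.546 (0.487 to 0.610), with 11 peaks in both, and the ratios were 0.637 for covered share and 0.857 for mean pileup. In the constant exons the ratio was 0.653 (0.479 to 0.897) and in the C-type variable exons 0.737 (0.604 to 0.892).

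By gene, 8 of all 21 gamma variable exons were lower in OSKM by at least 1.5-fold (38.1%), on the log2 scale with 0.05 scaled pileup added, next to 23.3% of 3971 other large coding exons. These 8 were Pcdhga7, Pcdhga8, Pcdhgb5, Pcdhgb6, Pcdhgb7, Pcdhga11, Pcdhga12 and Pcdhgc5. The median log2 change was -0.17 in the 21 gamma exons, of which 8 had no peak in any library. It was 0 in the other exons, of which 3429 were not exon 1 and 1687 were marked in at least 1 library. Among exons marked in at least 1 library, a set picked from these same data, 61.5% of 13 gamma and 54.6% of 1687 other exons were lower. Pcdhgc3 was higher in OSKM by at least 1.5-fold.

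The comparison of OSKM B12 with OSKM asked how vitamin B12 changed the mark during factor expression. Gamma density was 2.76 times as high in OSKM B12 (2.49 to 3.05), and the ratio over all other gene bodies was 2.45. For the same single gene bodies of low density it was 15.7 for Stag1, 9.79 for Pcdh19 and 7.04 for Stag2. It was 3.95 for Prkca, 1.86 for Dnmt3b and 2.07 for Wasf1. In the A- and B-type part the density was 0.00426 in OSKM and 0.0292 in OSKM B12, a ratio of 6.86 (5.08 to 9.30), with 3 and 12 peaks. Here too most of it was in the bases called, with ratios of 6.03 for covered share and 1.14 for mean pileup over covered bases. In the C-type part it was 0.119 and 0.255, a ratio of 2.14 (1.91 to 2.39), with 11 and 8 peaks, which were fewer and longer in OSKM B12. The covered share of the C-type part went from 28.7% to 40.8%, and its mean pileup had a ratio of 1.505. In the constant exons the density ratio was 1.87 (1.38 to 2.55). With pileup divided by its mean over the bases called in all 4 libraries, the ratios were 1.75 over the gamma span, 4.36 in the A- and B-type part, 1.36 in the C-type part and 1.19 in the constant exons. OSKM is the library with the lowest values in both comparisons, which share it.

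Of all 21 gamma variable exons, 8 were higher in OSKM B12 than in OSKM by at least 1.5-fold (38.1%), near the 33.5% of the other exons. The 8 were Pcdhga4, Pcdhga7, Pcdhga8, Pcdhgb7, Pcdhga11, Pcdhga12, Pcdhgc4 and Pcdhgc5. Pcdhga5, Pcdhga6, Pcdhgb5 and Pcdhgb6 were at 0 in both libraries, and Pcdhgc3 was lower in OSKM B12. Among exons marked in at least 1 library, 61.5% of 13 gamma exons were higher by that much, below the 78.4% of 1687 other exons.

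The comparison of MEF B12 with MEF asked the same without the factors. Gamma density was 0.0640 in MEF and 0.0760 in MEF B12, a ratio of 1.19 (1.10 to 1.28), close to the 1.20 over all other gene bodies. The A- and B-type part gave 1.51 (1.32 to 1.73), with 12 and 22 peaks. Its ratios were 1.56 for covered share and 0.966 for mean pileup over covered bases. For the single gene bodies of low density named above, the ratio was 1.21 for Stag1, 0.684 for Pcdh19 and 1.07 for Stag2. It was 1.33 for Prkca, 1.43 for Dnmt3b and 1.64 for Wasf1. The C-type part gave 1.08 (0.982 to 1.19) and the constant exons 0.937 (0.695 to 1.26). Of all 21 gamma variable exons, 4 were higher in MEF B12 by at least 1.5-fold (19.05%), namely Pcdhga5, Pcdhga6, Pcdhga7 and Pcdhgb6, beside 5.67% of the other exons. None was lower by that much. The 4 exons rested on between 5 and 42 estimated tags where a peak was present. All gamma variable exons are exon 1, whereas 3429 of the 3971 other exons are not. Among exons marked in at least 1 library, 30.8% of 13 gamma and 13.0% of 1687 other exons were higher.

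**Figure D4:**
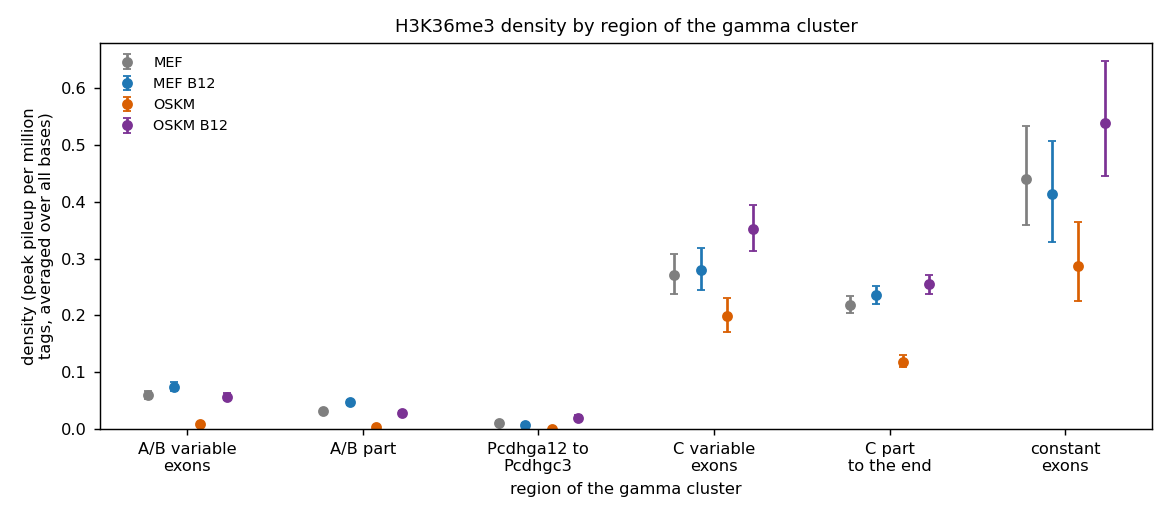
H3K36me3 density (vertical axis, peak pileup per 1000000 tags averaged over all bases of a region, from 0) in regions of the gamma cluster (horizontal axis), with 1 point per library and bars for the 95% counting interval. OSKM is the lowest point in every region, and the constant exons have the highest points, from 0.288 in OSKM to 0.539 in OSKM B12.

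Over bases inside peaks of every library, the differences between libraries were smaller. Such bases had to pass the peak cut-off also in OSKM, the library with the least signal. This selection can by itself bring the ratios with OSKM nearer to 1, so the smaller differences are not a separate result. The gamma span held 7266 such bases, 95.8% of them in the C-type part, out of 44445 bases in a peak in at least 1 library. Their mean scaled pileup was 0.516 in MEF and 0.553 in MEF B12, against 0.439 in OSKM and 0.647 in OSKM B12. The OSKM to MEF ratio there was 0.850, beside 0.754 over all such bases of the genome, and the OSKM B12 to OSKM ratio was 1.48, beside 1.57. Most of the gamma peak bases of OSKM lay inside peaks of another library: 82.0% of them were in MEF peaks and 75.7% in OSKM B12 peaks. In the other direction, 36.7% of the MEF bases and 36.4% of the OSKM B12 bases were in OSKM peaks. OSKM had 11415 gamma peak bases, against 25511 in MEF and 23761 in OSKM B12, which limits how high these shares can be. MEF and MEF B12 shared 17699 bases, 69.4% of those of MEF and 57.7% of those of MEF B12.

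The non-clustered protocadherins, single genes elsewhere in the genome, mostly lacked the mark. Of 12, only Pcdh18 had at least 10% of its body in peaks, with 75.3% in MEF and 71.8% in MEF B12, against 61.1% in OSKM and 74.7% in OSKM B12. Its mean density, 0.471, was above that of the next, Pcdh19 at 0.0156 and Pcdh10 at 0.00192, and Pcdh8, Pcdh17 and Pcdh20 had no peak. Pcdh18 was lower in OSKM than in MEF, with densities of 0.301 and 0.511.

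Most genes for known regulators of the clusters were marked. Of 18 such genes (among them Ctcf and the cohesin genes Rad21 and Smc3, which form loops between promoters and enhancers of the clusters, and the DNA methyltransferases), 17 had at least 10% of their body in peaks in MEF, MEF B12 and OSKM B12 and 15 in OSKM, beside between 35% and 43.7% of all other genes. Ehmt2, a histone H3 lysine 9 methyltransferase, had the highest mean density at 0.962, followed by Dnmt1 at 0.597 and Setdb1 at 0.561. Stag1 was lowest at 0.0215, after Dnmt3b at 0.0450 and Stag2 at 0.0571.

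Of 12 partners and processing enzymes of the proteins, 9 were marked in MEF and 10 in MEF B12, against 6 in OSKM and 9 in OSKM B12, beside 42.2%, 43.5%, 35% and 43.7% of all other genes. Cyfip1 and Nckap1, parts of the actin-regulating WAVE complex, had mean densities of 0.425 and 0.342. Prkca was at 0.0370, Wasf1 at 0.0156, and Ret, a receptor kinase, had no peak in any library.

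Most genes around and between the clusters had peaks. Of 17 neighbours within 250 kb, 14 were marked in MEF and 15 in MEF B12, against 12 in OSKM and 13 in OSKM B12, next to the same shares of all other genes. Ik, Dnd1 and Hdac3 had the highest mean densities, 0.703, 0.677 and 0.576, and Arap3, E230025N22Rik and Cd14 the lowest, 0.0166, 0.00769 and 0. Zmat2, the nearest gene upstream of the alpha cluster, was 59.0% covered in MEF and 69.2% in MEF B12, against 31.5% in OSKM and 71.0% in OSKM B12. Diaph1, which ends just after the gamma cluster on the opposite strand, was 24.4%, 31.0%, 15.7% and 33.0% covered. Between the beta and gamma clusters, Slc25a2, a mitochondrial ornithine carrier, was 64.3%, 67.3%, 0% and 86.1% covered. Taf7, a subunit of the general transcription factor TFIID, was 26.8% covered in MEF and 20.4% in MEF B12 and had no peak in OSKM and OSKM B12.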

How the data were processed

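The data were 4 deposited lists of broad H3K36me3 peaks, 1 per condition, each called by the authors against its own input. Libraries were grouped by their labels. Per the methods and the submitters' processing notes, Bowtie 0.12.9 placed the reads on mm10 and MACS2 2.2.6 called broad peaks. The aligner's setting drops reads with several places, while the methods word it as keeping them at 1 place. The file headers give q cut-offs of 0.05 and 0.1. Pileup, as deposited, is a signal that counts extended fragments per base, averaged over a peak, and each input, the larger library, was scaled down to its H3K36me3 library. Fold enrichment, as deposited, is a ratio that sets pileup against the local input. Significance was deposited as −log10 values, 1 for the p-value and 1 for the q-value. Reads outside peaks were not analysed here, so a region with no peak had no enrichment detectable at this depth, between 29046913 and 33399267 tags.

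From these files, Python 3.11, numpy 2.4.6 and scipy 1.17.1 gave covered shares, scaled pileup (per 1000000 tags), densities and their log2 changes, with 0.05 scaled pileup added. Interval arithmetic was tested on simulated data. Each gene of GENCODE M21 (GRCm38, the assembly of mm10) was represented by its protein-coding transcript with the longest span. The variable exon was the exon with the most coding bases, and constant exons were those shared by at least 2 members. Backgrounds left out the fusion gene models Gm42416, Gm37013 and Gm37388, which span the clusters. Wilson and exact Poisson or binomial intervals (95%) took estimated tags as pileup times length over fragment length, and they cover counting error only. Windows of 75 bases, every 5 bases, were matched to chromosome 18 of GRCm38 with bwa 0.7.19, with up to 2 mismatches and no gaps; other chromosomes were not searched.

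With 1 library per condition no p-value was computed. The members and gene lists were chosen with earlier results of these data known. Named were the C-type genes, the first and last member of each cluster, up to 20 members with the highest mean density, the nearest neighbours and the 3 highest and 3 lowest genes of each related list by mean density, of which 1 is not reported here. The other members are named by whether they had a peak, and Tubb3, Ctcf, Rad21 and Smc3 were named outside this rule, after their values were seen. Alternatives used stricter peaks (−log10 q of at least 5, or fold enrichment of at least 2), equal numbers of peaks per list, peaks at most 1 kb apart merged, other limits for a marked exon, and other scalings of pileup.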

Additional observations from a re-analysis of the deposited data

Results flagged for a closer look

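These values stand out because vitamin B12 went with a lower value in MEFs and a higher one with OSKM, or the reverse, each on 1 library per condition. The difference between the conditions was not tested. The gamma constant exons had a density of 0.441 in MEF and 0.413 in MEF B12, and of 0.288 in OSKM and 0.539 in OSKM B12. Their covered share was 83.1% and 75.7% without doxycycline, and 61.0% and 79.8% with it. The intervals of MEF and MEF B12 overlap for this density, and those of OSKM and OSKM B12 do not. They cover counting error inside called peaks only, so their overlap does not test a difference between conditions. The OSKM B12 to OSKM ratio was 1.87, beside 2.45 over all other gene bodies. It was 1.19 with pileup divided by its mean over the bases called in all 4 libraries.

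The C-type part had 11 peaks in MEF and 13 in MEF B12, and 11 in OSKM and 8 in OSKM B12. This part had a higher covered share with B12 both times, at 45.1% and 47.6% without doxycycline and 28.7% and 40.8% with it.

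Of the 13 gamma variable exons with a peak in any library, 5 had opposite signs. The same count was not made over other exons, so there is no share to set beside it. Of the 5, Pcdhga4, Pcdhgb7 and Pcdhga11 rested on between 11 and 34 estimated tags where a peak was present. The density of Pcdhga4 was 0.109 in MEF and 0.0869 in MEF B12, and 0.0688 in OSKM and 0.129 in OSKM B12. Pcdhgb7 had 0.0557 and 0.0498 without doxycycline, and 0 and 0.103 with it. Pcdhga11 had 0.0453 and 0.0451, nearly the same, and 0 and 0.0426. Pcdhga12 had 0.319 and 0.254, and 0 and 0.361. Pcdhgc5 had 0.442 and 0.399, and 0.216 and 0.511. No group had the 4 samples needed to look for a sample far from the others.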

How the results depend on the processing

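No paired analysis was possible because no condition has more than 1 library, and for the same reason no replicate was left out. The direction of each comparison over the gamma span held under each alternative that gave a value (5 for OSKM to MEF, 5 for OSKM B12 to OSKM and 6 for MEF B12 to MEF), although 1 of these, a fold enrichment of at least 2, left every gamma peak in place, the lowest being at 2.12. At a −log10 q of at least 5, OSKM had no gamma peak, so its ratios and its constant to variable exon ratio had no value, and MEF had no marked variable exon and no such ratio either.

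Requiring a −log10 q of at least 5 left 0 marked gamma exons in MEF and 1 in MEF B12, against 0 in OSKM and 3 in OSKM B12, no peak (0) in the alpha span of OSKM B12, and gamma covered shares of 2.27%, 4.57%, 0% and 6.43% with densities of 0.0121, 0.0270, 0 and 0.0431. The constant to variable exon ratio moved to 20.2 in MEF B12 and 9.41 in OSKM B12, and the MEF B12 to MEF ratio of the span to 2.24. A limit of 50% covered gave 4, 4, 1 and 3 marked exons. Merging peaks at most 1 kb apart gave covered shares of 16.3% in MEF, 20.5% in MEF B12 and 8.28% in OSKM. Unscaled pileup gave gamma densities of 2.09, 2.21, 0.868 and 2.12 fragments per base, an OSKM B12 to OSKM ratio of 2.45 (2.44 for fold enrichment in its place) and a MEF B12 to MEF ratio of 1.06. Scaling by the bases called in all 4 libraries gave 0.538 for OSKM to MEF, 1.75 for OSKM B12 to OSKM and 1.04 for MEF B12 to MEF. The OSKM B12 to OSKM ratio of the C-type part moved to 1.90 with unscaled pileup, 1.89 with fold enrichment and 1.36 with the scaling by shared bases, and that of the constant exons to 1.19 with the last. The C-type ratio of MEF B12 to MEF turned below 1 with unscaled pileup (0.965) and with the scaling by shared bases (0.951). The ratios of the A- and B-type part kept their direction, from 0.136 to 0.180 for OSKM to MEF, 4.36 to 6.86 for OSKM B12 to OSKM and 1.33 to 1.65 for MEF B12 to MEF. The causes of these shifts were not tested. Depth limits every count of peaks, since a weaker peak can pass the cut-off in a deeper library.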
